A study of Mus musculus with 12 samples.

Results

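The response of mouse oocytes to dorsomorphin (DM), a compound that inhibits AMPK, was compared between 2 stages of follicle growth. All 12 libraries of the series entered the comparison, 3 in each of 4 groups, and no library was left out. The groups were oocytes of primordial follicles with sham, primordial follicles with DM, primary follicles with sham and primary follicles with DM. The value of interest was the interaction of stage and treatment, that is, the DM minus sham difference in primary follicles minus the same difference in primordial follicles, on a log2 scale. A value above 0 therefore means that DM was followed by a higher level, relative to its own control, in primary than in primordial follicles. It was computed for 8500 of the 55401 genes in the count table, those with enough counts.

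The oocytes came from ovaries of female C57Bl/6j x CBA/J F1 mice aged 7 to 8 days, cultured for 5 days with DMSO, which the labels call sham, or with DM dissolved in DMSO. They were cut by laser from fixed, paraffin-embedded and stained sections, and stage was judged by morphology. The legends of the study give 200 pooled oocytes for each library, whereas its methods give 200 for each group, and the labels do not tie a library to a mouse. The legends also call the 3 samples of a group biologically independent, without naming the animals. The 3 libraries of a group may therefore still share animals, and the p-values measure the spread between libraries, which may be technical. In GEO's labels the material is called untreated and in vivo, whereas the study cultured the ovaries, and the dose of DM given to these ovaries was not stated for the libraries.

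A primordial follicle is a dormant oocyte with a flat layer of pregranulosa cells, and a primary follicle is one that has started to grow and whose granulosa cells have become cuboidal. AMPK is a kinase of an alpha, a beta and a gamma subunit that is switched on when cellular energy is low. It restrains the growth kinase mTOR and promotes autophagy and fatty acid oxidation. The signal from KIT through PI3K and AKT to the FOXO factors is the best known control of follicle activation. DM is also known to inhibit type I receptors for bone morphogenetic proteins (BMP), so genes of that pathway were examined as well.

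Total counts per library lay between 14034586 and 42639326. The number of genes at 10 CPM or more, where CPM is the count scaled to the library total, was 5675, 3169 and 2987 in primordial sham, 3370, 2915 and 2283 in primordial DM, 3539, 4035 and 976 in primary sham, and 1927, 1110 and 1473 in primary DM. Primary sham replicate 3 stood apart from the other 2 libraries of its group and lay below all 3 primary DM libraries. Its 100 most abundant genes took 51.2% of its counts, against 26.05% and 24.9% in the other 2, and between 35.6% and 48.5% in primary DM. The mean difference with DM was -1088 genes in primordial and -1347 genes in primary follicles, and these 2 differences differed by -259 genes (exact two-sided permutation test within stages, p = 0.92, where 0.005 is the smallest value that 400 arrangements can give). Without primary sham replicate 3 the interaction was -1196 genes (p = 0.435 in the same exact permutation test). The primordial difference rested largely on primordial sham replicate 1. Without it that difference was -222 genes and the interaction -1125 (p = 0.345 in the same exact permutation test). The difference in detected genes with DM was thus not distinguishable between the stages in these libraries, and a loss within each stage was not tested.

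**Figure D1:**
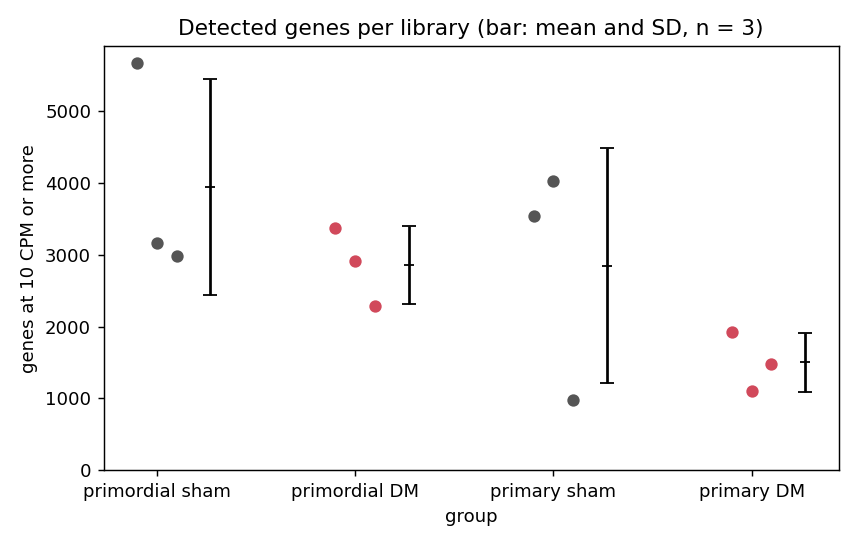
Number of genes at 10 CPM or more of total counts (vertical axis) in each library of the 4 groups (horizontal axis), with the group mean and SD (n = 3) as bars. The 3 primary DM libraries lie between 1110 and 1927 genes, and primary sham replicate 3, at 976 genes, lies below them.

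The labelled cell type was checked with marker genes, on CPM scaled by TMM, a normalization that assumes most genes do not differ between libraries. Of 21 oocyte markers 18 were tested. *Ddx4*, a germ cell RNA helicase, had 2643, 26640 and 11 counts in primordial sham and 13, 47451 and 303 in primary DM, and *Figla*, an oocyte transcription factor, did not pass the filter on low counts. The summed level of the 21 oocyte markers ranged from 21.1 to 961 CPM in primordial sham, from 17.5 to 866 in primordial DM, from 140 to 747 in primary sham and from 94.96 to 4354 in primary DM. That of 17 granulosa cell markers ranged from 490 to 1341 CPM in primordial sham, from 432 to 2992 in primordial DM, from 468 to 27218 in primary sham and from 1904 to 44955 in primary DM. Of that list *Fshr* and *Cyp19a1* were at 0 in all 12 libraries. The 12 stroma and theca markers summed to 1446 to 2967 CPM in primordial sham and 1685 to 3507 in primordial DM. In primary follicles their sum was 1521 to 23713 CPM with sham and 5822 to 21511 with DM. Blood, immune and endothelial markers summed to at most 490 CPM, the highest value being in a primordial DM library. The part of these surrounding cells in the results below was not tested, and in pooled RNA fewer cells of a type and less RNA per cell cannot be told apart.

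No gene passed the threshold for a stage-dependent response in edgeR's quasi-likelihood test, with 0 of 8500 genes (0%) under an adjusted p of 0.05. The smallest adjusted p was 0.0974, shared by 92 genes, 67 of them with an interaction above 0 and 25 below 0. At an unadjusted p under 0.05, 1605 genes (18.9%) were counted, 774 (9.11%) above 0 and 831 (9.78%) below 0. The share above 0, 48.2%, was 62.3% with the size factors of DESeq2 and 32.02% with library size alone, so the balance of directions depended on the scaling. DESeq2, run as an alternative, called 571 of 5386 genes that it gave an adjusted p (10.6%), 350 above 0 and 221 below 0. It gave no adjusted p to the remaining 12342 genes with counts. Of the 571 genes, 382 also had an unadjusted p under 0.05 in edgeR.

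The spread behind these values was wide. The biological coefficient of variation across genes was 1.903, and the median standard error of an interaction was 4.14 on the log2 scale. An interaction with an unadjusted p under 0.05 was at least 6.49 in size, with a median size of 11.1. In 510 of the 1605 genes (31.8%) a single library held over 90% of the summed CPM of all 12, compared with 1148 of all 8500 genes (13.5%). Leaving out each library in turn kept the sign of the interaction in 1396 of the 1605 genes (87.0%), which were chosen by their p, and in 3772 of all 8500 (44.4%). Both the sign and a p under 0.05 were kept in 145. With each library of primary DM left out, the sign changed in 41, 54 and 39 of the 1605 genes, more than for any library of the other groups.

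Across the genes tested, the responses at the 2 stages were almost uncorrelated. DM was followed by a higher fitted level at both stages in 1911 genes and by a lower level at both in 2491. Opposite signs were found in 4032 genes (47.4%), of which 2204 were higher in primordial and lower in primary follicles and 1828 the reverse. Pearson's r between the 2 responses over the 8500 genes was 0.063 and Spearman's rho was 0.061, where genes are not independent replicates and the stages share no library. The share with opposite signs was 42.4%, 47.0%, 51.6% and 48.8% in 4 equal groups of genes, from the lowest to the highest mean CPM.

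**Figure D2:**
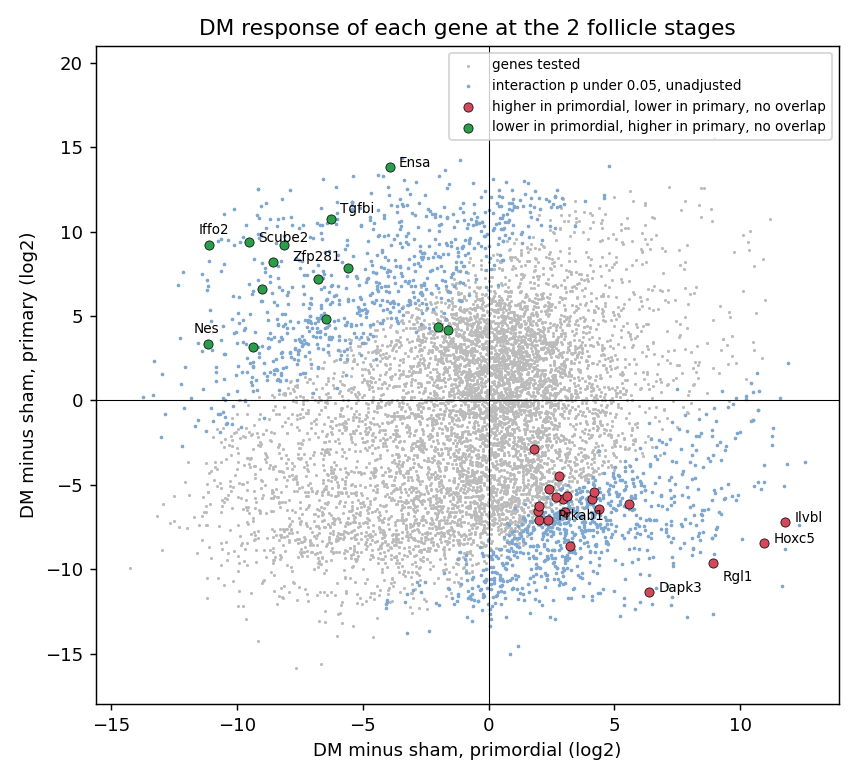
DM minus sham difference (log2) of each of 8500 genes in primordial (horizontal axis) and primary follicles (vertical axis). Blue points are the 1605 genes with an unadjusted interaction p under 0.05, and the ringed points are the 20 genes (red, lower right) and 14 genes (green, upper left) whose DM and sham libraries did not overlap at either stage and went in opposite directions.

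A stricter description used the libraries rather than fitted values. In 34 of 8500 genes (0.4%) the TMM-scaled CPM of all 3 DM libraries lay above all 3 sham libraries at one stage and below them at the other. Of these, 20 were higher with DM in primordial and lower in primary follicles, and 14 were the reverse. By comparison, 19 genes were higher and 68 lower with DM at both stages without overlap. In primordial follicles taken alone, 299 genes were higher and 741 lower with DM without overlap. In primary follicles alone, 227 were higher and 723 lower. Whether 34 is more than unrelated responses at the 2 stages would give was not tested. An unadjusted p under 0.05 was found for 27 of the 34 genes, 15 and 12 in the 2 directions, against 18.9% of all genes. None passed the adjusted threshold in edgeR (smallest adjusted p = 0.0974). DESeq2 called 20 of the 23 to which it gave an adjusted p, against 10.6% of all such genes. The 34 were picked from these same libraries for opposite separation, which favours a large interaction, so these counts are no independent support. The membership depended on the scaling. Only 11 of the 34 crossed with CPM of total counts alone, 19 with the size factors of DESeq2 and 22 with TMMwsp, a variant of TMM, and 6 crossed under all 4 scalings, namely *Hoxc5*, *Ilvbl*, *Snx1*, *Usp19*, *Sin3a* and *Abca5*.

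Among genes higher with DM in primordial and lower in primary follicles, *Hoxc5* had the smallest p. *Hoxc5* is a homeobox transcription factor of the HoxC cluster (GRCm38 chromosome 15, 102967443 to 103017429, plus strand), and its exons overlap those of *Hoxc10*, which lies on the same strand. Counts were 5, 8 and 3 in primordial sham and 29238, 5657 and 5 in primordial DM. The primary sham libraries had 11148, 9530 and 2876 counts and the primary DM libraries 9, 14 and 8. The 2 stages thus mirrored each other, except that primordial DM replicate 3 was as low as the controls in counts and lay above them only as 0.236 against at most 0.155 CPM. The interaction was -19.39 (standard error 5.49, adjusted p = 0.0974 in edgeR's test).

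*Snx1*, a sorting nexin of endosomal trafficking (chromosome 9, 66088133 to 66126587), separated the groups without such low libraries in primordial follicles. Its levels were 27.5, 3.91 and 12.4 CPM in primordial sham and 165, 130 and 122 CPM in primordial DM. They were 152, 53.6 and 717 CPM in primary sham and 0.365, 1.73 and 0.278 CPM in primary DM. The interaction was -11.85 (standard error 4.68, adjusted p = 0.169 in edgeR's test), and -10.33 without primary sham replicate 3, which held the highest value.

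*Usp19*, a deubiquitinating enzyme (chromosome 9, 108490602 to 108502337), followed the same order. It had 38.6, 2.22 and 11.9 CPM in primordial sham, 89.8, 196 and 816 in primordial DM, 75.2, 54.1 and 1.06 in primary sham, and 0.426, 0.365 and 0.695 in primary DM. The low library in primary sham was replicate 3, with 9 counts against 7, 4 and 10 in primary DM. The primary groups thus overlapped in counts and were apart only after scaling. The interaction was -10.83 (standard error 4.59, adjusted p = 0.191 in edgeR's test).

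The other genes of this direction that the rule named were *Rgl1*, *Ilvbl*, *Dapk3*, *Unc13b*, *Msh6*, *Rab1a* and *Aff4*, with interactions between -18.98 and -8.79 and adjusted p between 0.0974 and 0.213 in edgeR's test. *Rab1a*, a GTPase of transport from the endoplasmic reticulum to the Golgi, had 24391, 37870 and 8760 counts in primordial DM and only 17, 21 and 17 in primary DM. Its sham libraries had 6933, 7355 and 15 counts in primordial and 4000, 11447 and 17 in primary follicles. Primary sham replicate 3 lay above primary DM only as 2.00 against at most 1.91 CPM. *Unc13b*, which primes vesicles for release, had 9383, 16384 and 53991 counts in primordial DM and 10, 14 and 20 in primary DM. Its counts were 5142, 1960 and 2430 in primordial sham and 2734, 4579 and 23 in primary sham. The last of these was 2.70 CPM, against at most 1.39 in primary DM. *Msh6*, a DNA mismatch repair protein, had 1, 4 and 0 counts in primary DM against 539, 43 and 164 in primary sham. Several of these genes were therefore near 0 in all 3 primary DM libraries, where fewer genes were detected overall. *Ilvbl* had 0 counts in primary DM and 69, 1 and 1 in primary sham, at least 10.5-fold lower when a count of 0 is read as up to 3 counts in each library, a bound that rests on primary sham replicate 1. For *Dapk3*, a death-associated protein kinase, primary sham was 3574-fold above primary DM, which had 1 count in all (95% exact interval 641 to 141220, counting error only). Primary sham replicate 3 held 84.8% of its summed CPM, and the 3 sham libraries had 12, 763 and 1916 counts.

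In the reverse direction, *Iffo2*, an intermediate filament family member (chromosome 4, 139530548 to 139620382, plus strand), had the smallest p. Its exons overlap those of *Gm21969*, read in the same direction. Counts were 1754, 1 and 1346 in primordial sham and 1, 0 and 0 in primordial DM. At the primary stage, counts were 11, 0 and 4 in sham and 6256, 103 and 10 in DM. DM libraries were thus at or near 0 in primordial follicles, while a single primary DM library held most of the counts of that group. Primordial sham replicate 2 was as low as DM replicate 1 in counts and lay above it only as 0.0193 against 0.0178 CPM. In primary follicles DM replicate 3 had 10 counts, against 11 in sham replicate 1. The crossing was lost with TMMwsp and with library size alone. The interaction was 20.32 (standard error 5.82, adjusted p = 0.0974 in edgeR's test), 17.47 with a larger prior count of 2, and 15.37 without primary DM replicate 1.

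*Zfp281*, a zinc finger transcription factor known from pluripotent cells (chromosome 1, 136624901 to 136630053), was high in all 3 primordial sham libraries. It had 8343, 4247 and 5331 counts there and 19, 39 and 1 in primordial DM. Counts in primary follicles were 16, 30 and 4 with sham and 15762, 11 and 76 with DM. The difference in primordial follicles was seen in every library. In primary follicles the groups overlapped in counts, and DM replicate 2 lay above sham replicate 2 only as 1.003 against 0.859 CPM. The crossing was lost with library size alone, and the size of the primary difference rested on DM replicate 1. The interaction was 17.34 (standard error 5.29, adjusted p = 0.0974 in edgeR's test) and 10.54 without that library.

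*Tgfbi*, a matrix protein induced by TGF-beta, had 6454, 7551 and 91 counts in primordial sham and 8, 101 and 6 in primordial DM. Its primary sham libraries had 9, 6 and 13 counts and its primary DM libraries 52496, 18 and 93. Primordial DM replicate 2 exceeded sham replicate 3 in counts and lay below it only as 2.33 against 3.54 CPM. The primary groups lay apart narrowly, as 1.64 CPM in DM replicate 2 against 1.53 in sham replicate 3. With TMMwsp or library size alone the crossing of *Tgfbi* was lost. *Ensa*, an inhibitor of the phosphatase PP2A in mitosis and meiosis, had 1077, 1164 and 1166 counts in primordial sham and 279, 3 and 1 in primordial DM. In both genes 1 primary DM library held over 90% of the summed CPM, and the interactions of 17.01 and 17.77 became 8.75 and 8.14 without it. *Nes*, which encodes the intermediate filament nestin, had 2942, 2660 and 16 counts in primordial sham and 0, 1 and 0 in primordial DM, with 20, 4 and 1 and then 45, 5 and 45 counts in primary sham and DM. Its interaction was 14.51 (standard error 5.39, adjusted p = 0.152 in edgeR's test), and the counts in primary follicles were small. The remaining genes, *Scube2*, *Asph*, *Abca5*, *Cd164l2* and *Ccdc85b*, had interactions between 11.29 and 18.92 and adjusted p between 0.0974 and 0.163. *Abca5*, a lipid transporter, had 0 counts in all primary sham libraries and 13, 1 and 1 in primary DM, which is at least 1.25-fold higher against a limit of 3 counts in each library.

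**Figure D3:**
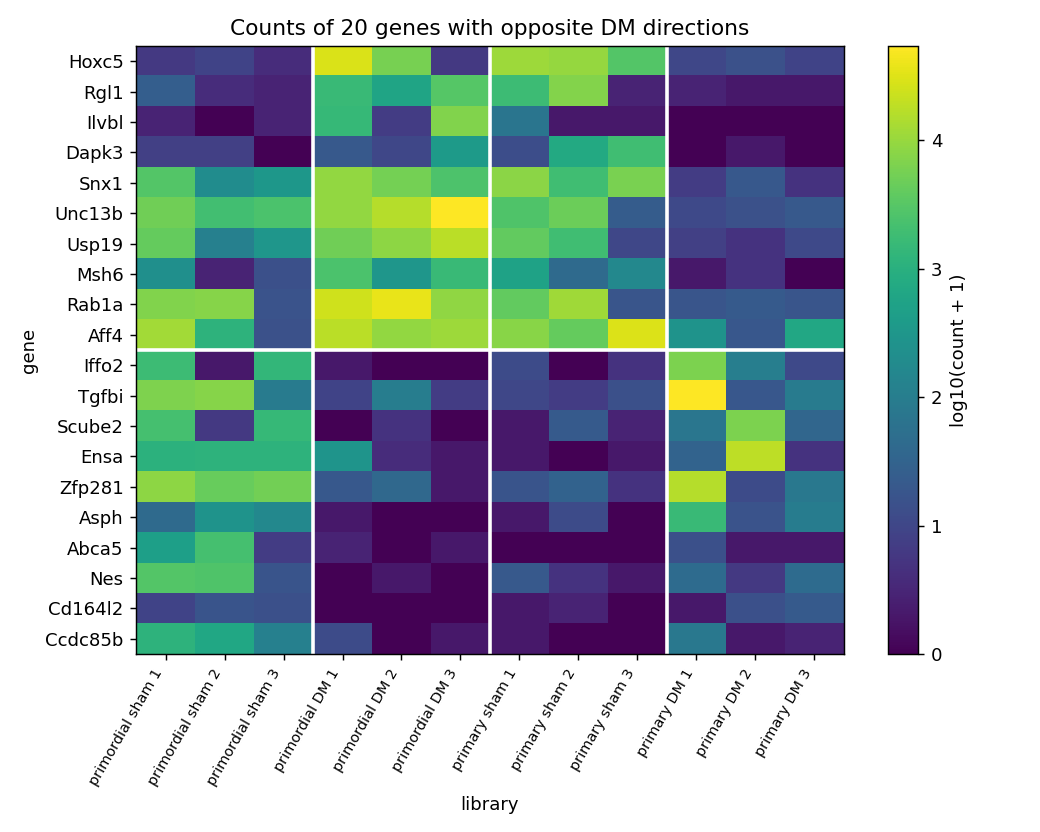
Counts as deposited, shown as log10(count + 1), of 20 genes (rows) in the 12 libraries (columns), with white lines between the 4 groups and between the 2 directions. The upper 10 genes had at most 682 counts in any primary DM library, and the lower 10 at most 279 in any primordial DM library.

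The genes with the smallest interaction p of all were *Znrf3* and *Paf1* below 0 and *Mmp16* and *Gcat* above 0. *Znrf3*, a ubiquitin ligase that removes Wnt receptors, had 1399, 8 and 12 counts in primordial sham, 9, 20 and 16658 in primordial DM, 43, 42 and 90455 in primary sham, and 11, 12 and 4 in primary DM. *Paf1*, a subunit of the elongation complex of that name, had 433, 5746 and 208092 counts in primary sham and 33, 38 and 34 in primary DM. Both were highest in primary sham replicate 3, which held 93.0% and 96.6% of their summed CPM. Their interactions were -18.18 and -15.74 and became -6.38 and -9.29 without that library. With the replicate number as a block they were -0.17 and -15.47. *Mmp16*, a membrane-bound matrix protease, and a locus with the symbol *Gcat* had interactions of 17.43 and 21.71, each with over 90% of the summed CPM in 1 primary DM library. Without it they were 6.36 and 10.95. The *Gcat* locus overlaps *Galr3* and another entry of the same symbol on the same strand, so its counts cannot be assigned to 1 gene.

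AMPK, the target of DM, was described through 17 genes of its subunits, upstream kinases and substrates, of which 12 were tested. Their interactions had a median of -0.09, against -0.42 over all genes tested, with 6 above and 6 below 0, and under the other 3 scalings the median lay between -1.47 and 1.47. Opposite directions at the 2 stages were found in 6 of the 12 (50%), against 47.4% of all genes. An unadjusted p under 0.05 was found for 4 of the 12, against 18.9% of all genes, *Cab39l* and *Prkab2* above 0 and *Prkaa1* and *Prkab1* below 0. The genes *Prkaa2*, *Prkag1*, *Prkag3*, *Camkk1* and *Ppargc1a* did not pass the filter. The 2 beta subunits, which tether the catalytic alpha subunit to the gamma subunit, had interactions of opposite sign, and their promoters are shown for that reason. Each is the 300 bases from 250 before to 50 after the annotated start in RefSeq, on GRCm38.p6, at chr5:116024379-116024678 on the minus strand for *Prkab1* and chr3:97657962-97658261 on the plus strand for *Prkab2*. Capitals mark the letters GGCGCC, a sequence that BMP-responsive SMADs can bind.
Prkab1: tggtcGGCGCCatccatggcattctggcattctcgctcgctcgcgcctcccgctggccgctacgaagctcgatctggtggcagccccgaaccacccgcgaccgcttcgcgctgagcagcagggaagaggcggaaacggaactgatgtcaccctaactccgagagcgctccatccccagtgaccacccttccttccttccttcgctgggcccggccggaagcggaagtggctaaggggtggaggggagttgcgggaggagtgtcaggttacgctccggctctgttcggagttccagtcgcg
Prkab2: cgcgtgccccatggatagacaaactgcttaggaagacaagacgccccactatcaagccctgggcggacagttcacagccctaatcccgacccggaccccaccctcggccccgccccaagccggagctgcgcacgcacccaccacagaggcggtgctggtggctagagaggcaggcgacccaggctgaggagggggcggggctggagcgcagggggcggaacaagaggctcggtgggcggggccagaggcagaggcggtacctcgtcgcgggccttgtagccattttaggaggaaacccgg
GGCGCC was found once in the *Prkab1* promoter, where it begins near the upstream end, and not in that of *Prkab2*. On either strand it occurs in 11.9% of the 32851 promoters of the table. None of CACGTG (the E-box), TGTTTAC (FOXO), CTTTGAT (TCF and LEF), CCAAT or TATAAA was found in either window. The letters are a description of the window and do not show binding.

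*Prkab1* (chromosome 5, 116013586 to 116024508, minus strand) encodes the beta1 subunit and was 1 of the 34 genes that crossed. Its levels were 27.8, 14.02 and 6.84 CPM in primordial sham and 28.9, 81.8 and 141 in primordial DM. They were 143, 2.00 and 12.9 CPM in primary sham and 0.122, 0.821 and 0.209 in primary DM. The primary DM libraries had 2, 9 and 3 counts and lay clearly below the controls, whereas the separation in primordial follicles was narrow and was lost under the other 3 scalings. The interaction was -9.47 (standard error 4.60, unadjusted p = 0.0396 and adjusted p = 0.244 in edgeR's test), and ranged from -10.70 to -6.91 when 1 library was left out. DESeq2 gave an interaction of -8.56 with an adjusted p of 0.0152.

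*Prkab2* (chromosome 3, 97658193 to 97673812, plus strand), which encodes beta2, has an exon overlap with *Gm17651* on the opposite strand. It had 2810, 18 and 11 counts in primordial sham, 0, 10 and 4 in primordial DM, 3, 11 and 6 in primary sham, and 6841, 1 and 0 in primary DM. The groups overlapped in primary follicles, where DM replicate 1 was high and the other 2 libraries were below the controls in counts. After scaling, DM replicate 2, at 0.0912 CPM, lay above sham replicate 1, at 0.0562 CPM. The interaction of 14.61 (standard error 5.19, adjusted p = 0.139 in edgeR's test) was 2.88 without primary DM replicate 1, which held 93.6% of the summed CPM.

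*Prkaa1*, the alpha1 catalytic subunit (chromosome 15, 5143861 to 5181899), had 3699, 2 and 26 counts in primordial sham, 12, 5 and 6354 in primordial DM, 618, 3839 and 3 in primary sham, and 4, 3 and 0 in primary DM. The primordial groups overlapped, and primary DM was near 0 in all 3 libraries, as was primary sham replicate 3. The interaction was -10.93 (standard error 4.77, adjusted p = 0.203 in edgeR's test) and -1.94 without primordial DM replicate 3. *Cab39l*, a scaffold of the upstream kinase LKB1 (chromosome 14, 59440972 to 59585764, with *Cdadc1* on the opposite strand), had 1506, 3278 and 0 counts in primordial sham and 0, 1 and 0 in primordial DM. The primary sham libraries had 13, 2 and 0 counts and the primary DM libraries 1663, 2 and 2. Its interaction was 19.39 (standard error 5.86, adjusted p = 0.0974 in edgeR's test), 16.44 with a prior count of 2, and 11.75 without primary DM replicate 1.

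**Figure D4:**
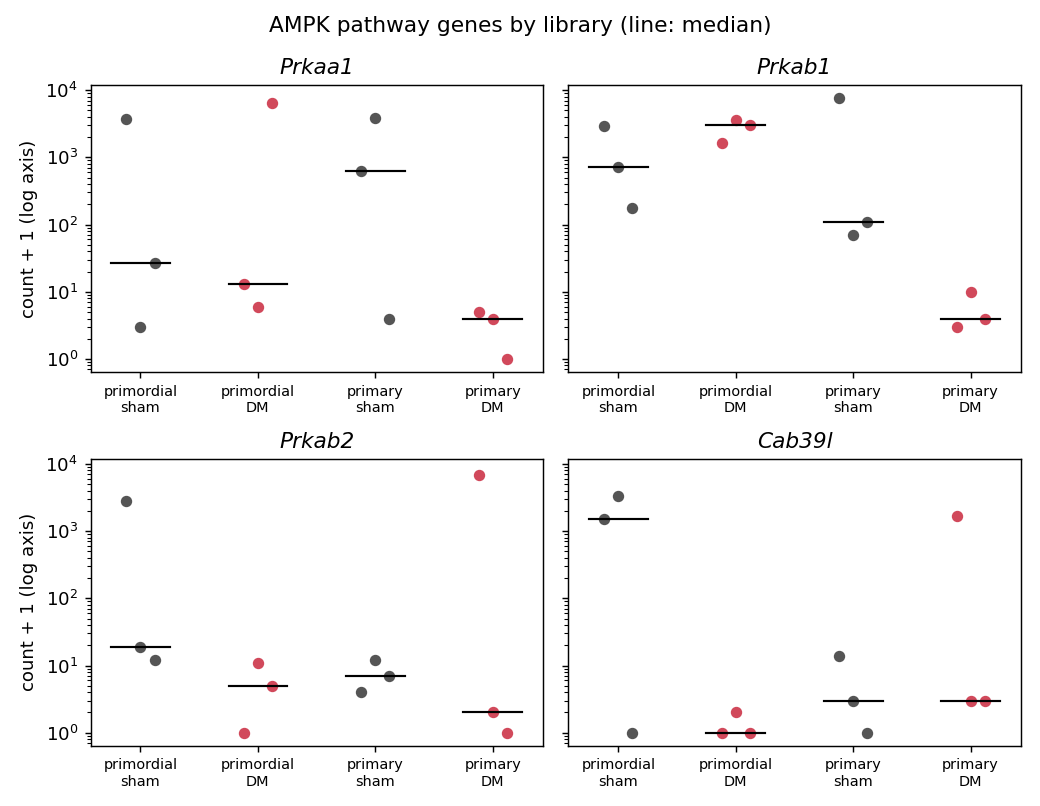
Counts plus 1 on a log axis of 4 AMPK pathway genes in each library, with group medians as lines and DM libraries in red. *Prkab1* is low in all 3 primary DM libraries, whereas the high primary DM values of *Prkab2* (6841 counts) and *Cab39l* (1663 counts) come from 1 library each.

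Downstream of AMPK, 12 of 14 genes of the mTOR complex, TSC and S6K were tested, with a median interaction of -0.50. *Rheb*, the GTPase that activates mTOR, and *Akt1s1*, an inhibitory partner of mTOR, had an unadjusted p under 0.05, both above 0. That is 2 of 12, near the 18.9% of all genes. *Rheb* had 3301, 9908 and 140 counts in primordial sham and 9, 1 and 2 in primordial DM, which did not overlap. At the primary stage, counts were 31, 1695 and 1 in sham and 4, 3 and 7161 in DM, and the interaction of 12.96 was 3.53 without primary DM replicate 3. Of 18 autophagy and lysosome genes, all tested, 2 were above and 3 below 0 at an unadjusted p under 0.05, and 10 of 18 (55.6%) went in opposite directions, against 18.9% and 47.4% of all genes. *Atg13*, a partner of the kinase ULK1, had an interaction of 18.81 (adjusted p = 0.0974 in edgeR's test), carried by 14261 counts in 1 primordial sham and 5963 in 1 primary DM library, and 8.22 without the latter. *Map1lc3b*, the LC3 protein of autophagosomes, had 4229 counts in primordial DM replicate 3 and at most 13 in any other library, and its interaction of -11.68 was -2.24 without it, and *Pik3c3*, a lipid kinase that starts autophagosomes, had an interaction of -10.37, and -3.62 without primary sham replicate 1.

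Of 20 genes of fatty acid and cholesterol metabolism 18 were tested. *Scd1*, a desaturase, *Hadha*, of mitochondrial fatty acid oxidation, and *Srebf2*, a regulator of cholesterol synthesis, had an unadjusted p under 0.05, all below 0, and 9 of 18 (50%) were in opposite directions, both near the shares over all genes (18.9% and 47.4%). *Scd1* had 17, 4 and 0 counts in primordial sham, 2510, 6023 and 5 in primordial DM, 5, 1415 and 2 in primary sham and 15, 0 and 6 in primary DM. Its interaction was -14.43 (standard error 5.25, adjusted p = 0.145 in edgeR's test), and -8.50 without primary sham replicate 2. *Srebf2* had 7193, 2304 and 33 counts in primary sham and 9, 4 and 8 in primary DM, which did not overlap. The median of the list was -0.92, and lay between -2.74 and 0.98 under the other 3 scalings, so it had no fixed sign. In glycolysis 1 of 14 tested genes had an unadjusted p under 0.05, *Pgam1* at -9.07, which was -5.13 without primary sham replicate 1.

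An unadjusted p under 0.05, found for 18.9% of all genes, was also found for *Pik3r3*, a regulatory subunit of PI3K, and *Akt2*, a kinase downstream of it. Both of these PI3K and AKT genes had an interaction below 0. That of *Pik3r3* was -11.82, and -3.21 without primary sham replicate 2. *Akt2* had 4525, 6178 and 4821 counts in primordial sham and 7869, 3619 and 1090 in primordial DM, which overlapped. Counts in primary follicles were 5581, 3366 and 14541 with sham and 5, 15 and 43 with DM. The groups were thus apart at the primary stage alone, with an interaction of -8.33 (standard error 4.14, adjusted p = 0.255 in edgeR's test) and -5.69 without primary sham replicate 3.

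In the BMP pathway, the other known target of DM, 12 of 17 receptor, SMAD and ID genes were tested, with a median interaction of 2.49. At an unadjusted p under 0.05 there were 3 of the 12, all above 0, against 18.9% of all genes. *Smad4*, the SMAD shared by BMP and TGF-beta signals, had 21679, 69783 and 4399 counts in primordial sham and 42, 33 and 27 in primordial DM. The primary sham libraries had 14942, 15115 and 38 counts and the primary DM libraries 24716, 41 and 149078. All 3 primordial DM libraries were far below their controls, while the primary groups overlapped. The interaction was 13.32 (standard error 3.90, unadjusted p = 0.000632 and adjusted p = 0.0974 in edgeR's test). It stayed between 10.67 and 14.11 when any library was left out, and DESeq2 gave 15.13 with an adjusted p of 1.39e-05. *Bmpr1b*, a type I BMP receptor, had 529, 4 and 9 counts in primordial sham, 1, 0 and 1 in primordial DM, 167, 267 and 0 in primary sham and 9, 431 and 1348 in primary DM. *Acvr2a*, a type II receptor, had counts in 1 of 3 primary DM libraries and 0 in primary sham, and the fitted value for it depends on the prior count.

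Wnt genes were few in these libraries. Of 19 ligands 3 were tested and 16 did not pass the filter, none had an interaction p under 0.05, and none of the 3 was in opposite directions. The fitted sign of all 3 turned when some library was left out. *Wnt2b* had 49, 0 and 0 counts in primordial sham, 1809, 57 and 81 in primordial DM, 0 in all primary sham libraries, and 1, 0 and 87 in primary DM. DM and sham libraries thus did not overlap in primordial follicles and overlapped in primary follicles. Its interaction was 2.94 (adjusted p = 0.594 in edgeR's test), -3.09 without primary DM replicate 3, also below 0 without primordial sham replicate 1, and -0.63 with a prior count of 2, whereas DESeq2 gave 17.13 with an adjusted p of 0.00121. *Wnt4*, an ovarian ligand, had 903, 221 and 333 counts in primordial sham, 3, 2534 and 159 in primordial DM, 5, 0 and 1 in primary sham and 3, 358 and 2 in primary DM. Its interaction was 5.92 (adjusted p = 0.445 in edgeR's test) and turned to -0.45 without primary DM replicate 2. *Wnt6* had an interaction of -3.19 that turned to 1.89 without primordial DM replicate 2. Of 26 receptors and beta-catenin effectors 19 were tested, and *Fzd2*, *Fzd7* and *Apc* had an unadjusted p under 0.05, all above 0. These are 3 of 19, against 18.9% of all genes. *Fzd2*, a Wnt receptor, had 22695, 58659 and 12 counts in primary DM and 15, 7 and 11 in primary sham, with an interaction of 9.65, and 6.36 without primordial sham replicate 1. *Apc*, of the beta-catenin destruction complex, had an interaction of 7.19 that turned to -2.84 without primary DM replicate 3.

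Of 13 apoptosis and oocyte checkpoint genes tested, 3 had an unadjusted p under 0.05, against 18.9% of all genes. *Trp63*, a guardian of the oocyte genome, had 1821, 7 and 5 counts in primordial sham and 7, 9901 and 2 in primordial DM. At the primary stage, counts were 4843, 1007 and 13671 in sham and 2, 12 and 3 in DM, which did not overlap. Its interaction was -13.96, and -4.89 without primordial DM replicate 2. *Mcl1*, an inhibitor of apoptosis, had 2629, 7 and 4002 counts in primordial sham, 15, 23 and 7 in primordial DM, 2995, 2151 and 6 in primary sham and 12700, 26585 and 92 in primary DM. The interaction of 12.06 (standard error 4.40, adjusted p = 0.147 in edgeR's test) stayed between 9.77 and 12.55 when a library was left out. *Casp2*, a caspase, had 65026 counts in 1 primary DM library, and its interaction of 12.04 became 0.37 without it. Of 11 cyclin and CDK genes tested, *Cdk2*, a cell cycle kinase, had an unadjusted p under 0.05, with 2, 4437 and 7680 counts in primordial DM, 2, 856 and 1 in primary sham and 1, 3 and 1 in primary DM. Its interaction was -15.76, and -9.16 without primary sham replicate 2.

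Marker genes of the surrounding cells were examined in the same way, and none passed the adjusted threshold in edgeR. Of 12 granulosa markers tested, 2 were above and 2 below 0 at an unadjusted p under 0.05, which 18.9% of all genes had. *Foxl2*, which maintains granulosa cell identity, had 40701, 39034 and 4197 counts in primordial sham and 97, 656 and 61 in primordial DM, which did not overlap. At the primary stage, counts were 10775, 135 and 226837 in sham and 4084, 474295 and 6807 in DM, and the interaction of 6.75 (adjusted p = 0.179 in edgeR's test) was 1.03 without primary DM replicate 2. *Nr5a2*, a nuclear receptor of granulosa cells, had an interaction of 10.00 and *Krt18*, a keratin of pregranulosa cells, one of -14.61, which was -4.58 without primary sham replicate 1. Of the 18 oocyte markers tested 1 had an unadjusted p under 0.05, *Npm2*, an oocyte histone chaperone, with 258, 34 and 0 counts in primary sham, 0 in all 3 primary DM libraries and at most 15 in any primordial library. Its interaction was -11.64, and -6.55 without primordial DM replicate 2. None of 8 stroma and theca genes did, and among 2 blood and endothelial genes *Kdr*, an endothelial receptor, did, at -11.11 and at -6.19 without primary sham replicate 1.

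Among large complexes that most cells share, ribosomal protein genes were the best covered. Of 79 tested ribosomal protein genes 53 had an interaction above 0 and 26 below, with a median of 1.42. Opposite directions were found in 28 (35.4%), against 47.4% of all genes. The median was between 0.30 and 1.91 under the other 3 scalings. An unadjusted p under 0.05 was found for 3 of the 79, against 18.9% of all genes, *Rpl36a* and *Rpl29* above 0 and *Rpl39* below. *Rpl36a* had 20293, 60404 and 11658 counts in primordial sham, 6743, 8500 and 55 in primordial DM, 7392, 4968 and 43 in primary sham and 45822, 135862 and 722 in primary DM. *Rpl39* had 12199, 1164 and 5 counts in primary sham and 5, 10 and 6 in primary DM, which overlapped. Its interaction was -8.65 (adjusted p = 0.264 in edgeR's test). Of 59 genes of oxidative phosphorylation encoded in the nucleus, 2 were above and 3 below 0 at an unadjusted p under 0.05, with a median of 0.16. These 5 of 59 compare with 18.9% of all genes. One of those below was a locus that carries the symbol *Atp5o* but overlaps *Donson* and another *Atp5o* entry, which was not tested, so it is left out here. *Ndufa13*, of complex I, had 0 counts in all 3 primary DM libraries and an interaction of -11.50, which was -6.12 without primordial DM replicate 3. Of 32 proteasome genes 17 were above and 15 below 0, with a median of 0.25. An unadjusted p under 0.05 was found for 2 above and 3 below 0, 5 of 32 against 18.9% of all genes. *Psmb3*, *Psmb5* and *Psmb6*, all beta subunits of the core, had interactions of 13.06, 12.10 and -10.89. That of *Psmb5* was 2.12 without primordial sham replicate 1 and that of *Psmb6* was -3.57 without primary sham replicate 3. None of 7 mitochondrial mRNAs and none of 7 immediate-early and stress genes had an unadjusted p under 0.05.

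**Figure D5:**
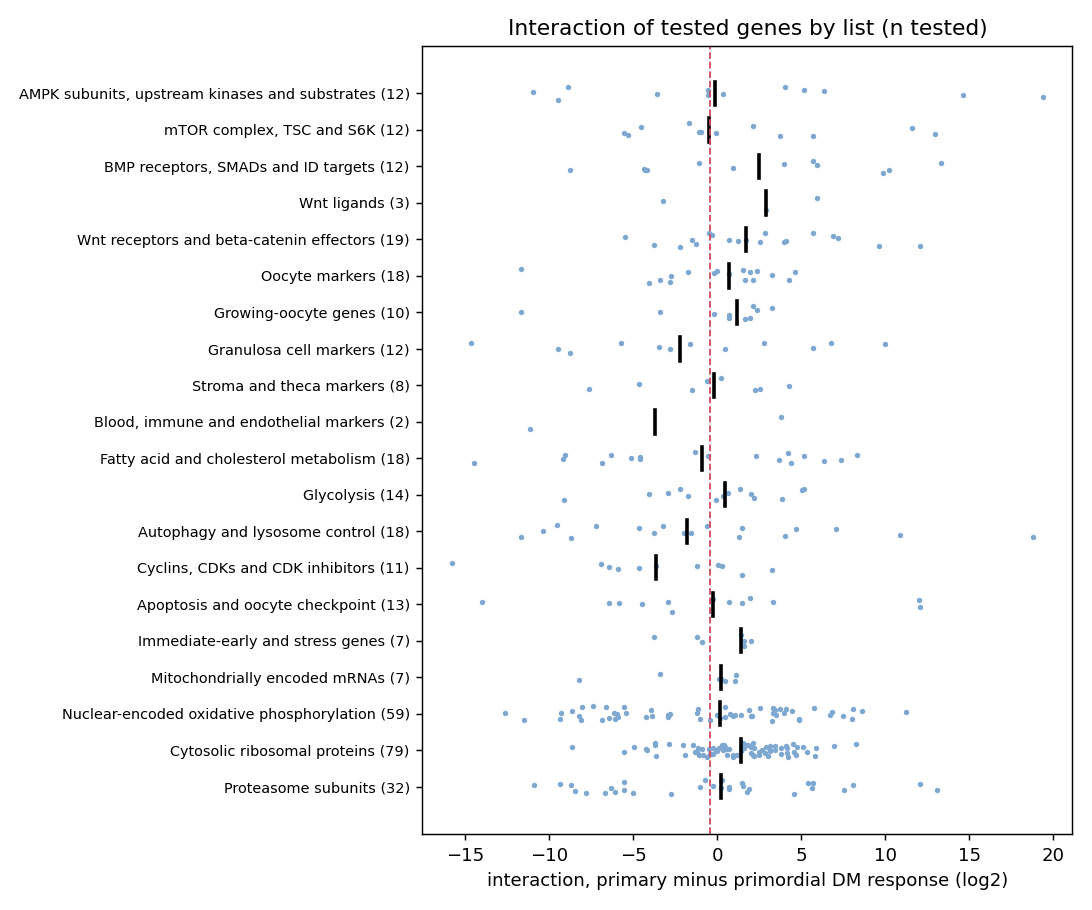
Interaction (log2, horizontal axis) of each tested gene (points) in 20 lists, with the median of the list as a black line, the number tested in brackets, and the median of all 8500 genes, -0.42, as a dashed line. Most lists spread to both sides of 0, and of the 79 ribosomal protein genes 53 lie above 0.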

How the data were processed

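Laser-captured oocytes were sequenced in 12 libraries. Reads were trimmed and aligned to mm10 (build GRCm38). Gene-level read counts from featureCounts are what the authors deposited, not normalized. The submitters' processing notes name Trim Galore, STAR and featureCounts, whereas the methods of the study name TopHat2. RNA was amplified and no molecular identifiers were used, so counts are not independent molecules, and intervals and limits cover counting error only. Strand use in counting was not given in the sources used here, so genes with exon overlaps may share reads.

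Counts were analysed in R 4.3.3 with edgeR 4.0.16 (filterByExpr, TMM, glmQLFit and glmQLFTest, prior count 0.125) in 1 fit of 4 group means over all 12 libraries, with Benjamini-Hochberg adjustment over the 8500 genes and a threshold of 0.05. Standard errors were derived from the log2 value and F. The study names DESeq2, which was run as an alternative (version 1.42.0, stage, treatment and their interaction). Python 3.11.15 and SciPy 1.17.1 were used for tables and exact permutation tests. Symbols were matched for 55141 of 55401 identifiers, and positions and exon overlaps came from a GRCm38 annotation. No pair of libraries within a group was within sampling noise (smallest chi-square per degree of freedom 1588). The code was tested on simulated data.

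The gene lists, the rules and the comparison were chosen with earlier results of these data known. Named genes were, by rule, up to 10 in each direction that crossed without overlap with an unadjusted p under 0.05, up to 3 of each list with the smallest p, the 2 with the smallest p in each direction, and *Prkab1* and *Prkab2*. *Ddx4*, *Figla*, *Fshr*, *Cyp19a1* and *Sin3a* were named in addition, after their values were seen, as were list members that did not pass the filter. The summary of 1 further list is not reported here. Alternatives were other normalizations, filters, prior counts, DESeq2, a replicate block and leaving out each library.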

Additional observations from a re-analysis of the deposited data

Results flagged for a closer look

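The 20 genes that were higher with DM in every primordial and lower in every primary library, and the 14 that were the reverse, are listed here because each group of libraries moved the opposite way at the other stage. That opposition was read from non-overlap and was not tested as such. None of these genes had an adjusted p under 0.05 in edgeR, and 27 of the 34 had an unadjusted one, which choosing them by opposite separation favours. Under DESeq2, 571 genes had an interaction with an adjusted p under 0.05, of which 498 went in opposite directions in that fit, whereas edgeR called 0. Over all genes of the DESeq2 fit 46.4% went in opposite directions, and choosing genes by a large interaction favours opposite signs.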

How the results depend on the processing

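The count of genes with an adjusted p under 0.05 was 0 in every edgeR alternative and in every fit that left out 1 library, and 571 with DESeq2. The count at an unadjusted p under 0.05, 1605, became 147 when at least 10 counts in every library were required, which left 1083 genes to test. Without 1 library it lay between 1397 and 1689. The share of these genes above 0 was 48.2%, 62.3% with the size factors of DESeq2, 32.02% with library size alone and 31.3% with at least 10 counts in every library. With the replicate number as a block, 533 genes had an unadjusted p under 0.05 and 0 an adjusted one. The numbers were not taken as pairing, since libraries of the same number in different groups had deviations correlated between -0.04 and 0.04, in 0 of 18 pairs over 0.1, and 6 of 12 libraries correlated best with their own number.

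The median interaction, -0.42, was 0.71 with the size factors of DESeq2, -0.16 with TMMwsp and -1.25 with library size alone, and lay between -1.73 and 0.45 without 1 library, above 0 without primordial DM replicate 1 or 2 or primary sham replicate 1 or 2. A shift of all genes between the stages therefore had no fixed sign. The share in opposite directions, 47.4%, was 33.2% with no filter on low counts, 45.6% with library size alone and 51.2% with at least 10 counts in every library, and between 43.9% and 48.3% without 1 library. The count of 34 crossed genes was 18 with library size alone, 7 with at least 10 counts in every library and 15 with a median of at least 10 CPM in the higher group at each stage. Without 1 library it was between 49 and 80, where fewer libraries have to be apart. The interaction in detected genes, -259, lay between -1196 and 333.5 without 1 library, above 0 without primordial sham replicate 2 or 3 or primary sham replicate 1 or 2. Of the 86 genes named by the rule, 13 turned sign when some library was left out. Among the 64 of them that the text describes, these were *Wnt2b* (-3.09 without primary DM replicate 3, 5.30 at most, and -0.63 with a prior count of 2), *Wnt4* (-0.45 without primary DM replicate 2, 8.45 at most), *Wnt6* (1.89 without primordial DM replicate 2, -7.50 at the lowest) and *Apc* (-2.84 without primary DM replicate 3, 8.19 at most). DESeq2 called 30 of the 64, and the smallest adjusted p among the edgeR alternatives was 0.071. Leaving out libraries for the share and for the crossed genes, the block and no filter for the share, and the prior count of 2 and TMMwsp for single genes were chosen after seeing the data. The causes of these changes were not tested, other than the number of genes or libraries left.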
